A study of Mus musculus with 6 samples.

Results

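The forkhead family of transcription factors was examined in RNA-seq of mouse embryonic stem cells (mESCs). Its members were all genes of the deposited table whose symbol is *Fox*, a letter from a to s and a number, which gave 44 of the 55385 genes. RNA came from wild-type mESCs of the G4 line, an F1 hybrid of 129/Sv and C57BL/6, and from G4 mESCs in which CRISPR-Cas9 had removed the *Wnt6* loop anchor, a region contacted over long distance by other Polycomb-bound regions, from 1 allele (heterozygous deletion) or from both (homozygous deletion). All cells were maintained with LIF, a cytokine that keeps mESCs undifferentiated, on CD1 feeder cells, so that RNA of feeder fibroblasts can be part of a library. Each genotype had 2 libraries. The deletion lines were picked as individual clones, and whether the 2 libraries of a genotype came from separate clones or cultures is not stated. P-values therefore measure the spread between these libraries, which may be technical. A difference between genotypes cannot be told apart from a difference between clones.

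Forkhead proteins bind DNA through a winged-helix domain, the forkhead box, and are grouped by letter into subfamilies. Many members specify tissues of the embryo, among them gut endoderm (*Foxa*) and vascular and skeletal mesenchyme (*Foxc*, *Foxf*). Others act in most cells, where they couple transcription to insulin signalling (*Foxo*), to metabolism (*Foxk*) or to entry into mitosis (*Foxm1*), and *Foxd3* and *Foxh1* act in the early embryo and in pluripotent cells.

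The 6 libraries held between 23813912 and 28964706 counts, and 3 counts corresponded to between 0.102 and 0.131 CPM, counts per 1e6 of the library total after TMM scaling for composition. *Wnt6* itself had 11 and 13 counts in wild-type mESCs, 6 and 4 with the heterozygous and 0 and 0 with the homozygous deletion, in the order of the labels. Pluripotent stem cell markers were abundant in every library, with a sum over 10 genes of 2965 to 3459 CPM. Markers of feeder fibroblasts differed between genotypes: their sum over 22 genes was 1761 and 1774 CPM in wild-type mESCs, 1237 and 1181 with the heterozygous and 782 and 762 with the homozygous deletion. Replicate libraries were not copies of each other: their chi-square over its degrees of freedom, which is near 1 for sampling noise alone, was 2.21 for the wild-type, 2.30 for the heterozygous and 3.38 for the homozygous pair. Standard errors, given as ±, come from the edgeR fit described below and include its fitted spread between libraries. Floors of 3 counts cover counting error only.

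In wild-type mESCs the forkhead genes ranged from 0 counts to levels among the more abundant transcripts. To compare genes with each other, each level was divided by the length of the gene's exons in kilobases. *Foxh1*, the forkhead partner of SMAD proteins in Nodal signalling (chromosome 15, 76668225 to 76669948 of GRCm38), had the highest level, 54.5 and 54.6 CPM per kilobase, above 96.8% of the genes that had counts in those libraries. It was followed by *Foxo4*, a FoxO factor (22.9 and 22.1 CPM per kilobase), *Foxm1* (19.9 and 19.3), *Foxp4*, a repressor of the FoxP subfamily (16.9 and 16.7), and *Foxk2* (16.4 and 16.8). The 2 wild-type values of *Foxp4* and *Foxk2* overlapped, so their order was not resolved, while the 3 genes above them did not overlap with their neighbours. *Foxp1* (mean 11.7 CPM per kilobase), *Foxi3* (9.90), *Foxo1* (7.56), *Foxn2* (7.17) and *Foxk1* (6.46) came next without overlap. *Foxo3* (5.62) overlapped with *Foxj3* (5.48), and *Foxd3* (5.16) with *Foxn3* (5.03).

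Below these 14 genes the level fell to 2.22 CPM per kilobase for *Foxs1*, 2.13 for *Foxr2*, 2.09 for *Foxn4*, 1.92 for *Foxj2*, 1.03 for *Foxj1* and 0.941 for *Foxr1*. From *Foxa3* (0.556) and *Foxc2* (0.529) downwards most neighbours overlapped. Of the 44 members, 15 had a mean wild-type level of at least 10 CPM without division by length, 8 lay between 1 and 10 CPM, and 21 lay under 1 CPM. *Foxi1*, a gene of inner ear and kidney, had 0 counts in every library, and *Foxb2* had 1 count in the 6 libraries together, which is under the limit of 3 counts per library that a count of 0 allows. Together the 44 genes took between 0.0958% and 0.102% of a library's counts, and the 12 widely expressed and signal-regulated members (*Foxo1*, *Foxo3*, *Foxo4*, *Foxk1*, *Foxk2*, *Foxm1*, *Foxj2*, *Foxj3*, *Foxn2*, *Foxn3*, *Foxp1* and *Foxp4*) held 86.4% to 87.5% of that. The family sum was 994 and 987 CPM in wild-type mESCs, 1000 and 998 with the heterozygous and 995 and 1010 with the homozygous deletion.

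**Figure D1:**
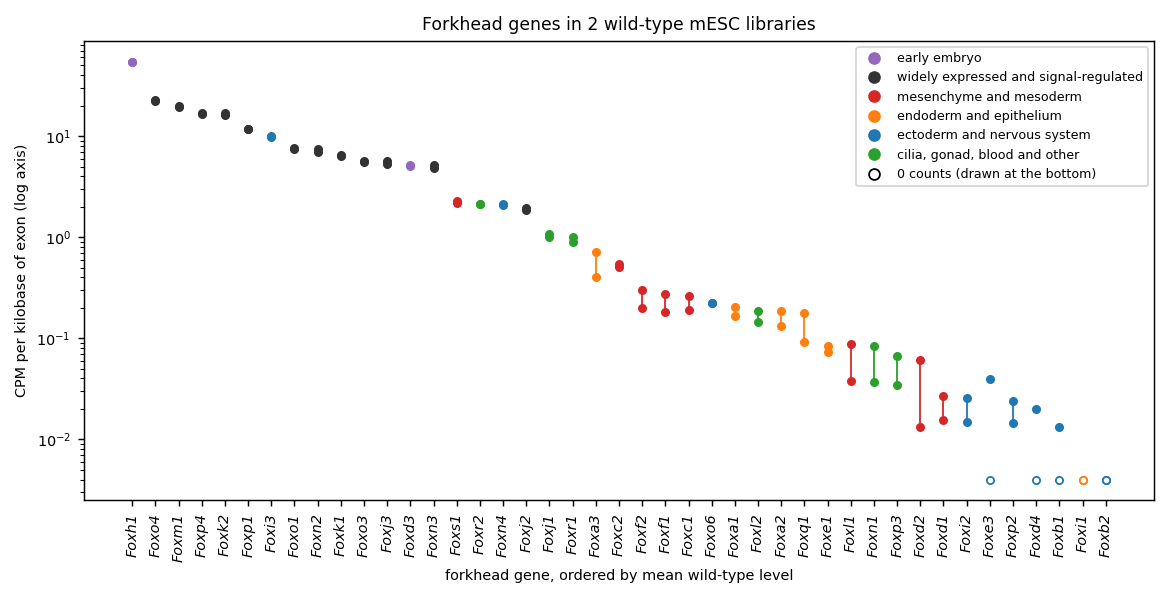
Level of the forkhead genes in the 2 wild-type libraries, 1 not shown (vertical log axis, CPM per kilobase of exon), ordered by mean and coloured by role; a line joins the 2 libraries and open points are 0 counts. *Foxh1* stands at 54.5 CPM per kilobase, widely expressed members fill most of the places down to 5.03, and tissue-specific members make up most of the lower end.

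Most expressed members had several exons. In the longest annotated transcript, 14 members had a single exon and 30 had several. Of the single-exon genes only *Foxd3* reached 10 CPM, and their median wild-type level was 0.106 CPM per kilobase, against 2.0 for the genes with several exons, of which 14 reached 10 CPM. Several low members lay close together on a chromosome. *Foxf1*, *Foxc2* and *Foxl1* followed each other on chromosome 8 with gaps of 28.0 and 9.0 kb, *Foxq1*, *Foxf2* and *Foxc1* on chromosome 13 with gaps of 64.8 and 175.2 kb, and *Foxd2* and *Foxe3* lay 16.3 kb apart on chromosome 4.

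Promoters of 28 members were in the RefSeq table of GRCm38.p6, each with 250 bases before and 50 after the start. For each member 1 promoter was used, the nearest to its GENCODE start. The promoters set beside them include alternative ones, with 21263 promoters for 17492 symbols of protein-coding genes. The RefSeq start lay 113508 bases from the GENCODE start of the gene for *Foxn3*, 6032 for *Foxp3*, 2657 for *Foxj3* and 1728 for *Foxp1*, so that these windows need not be those of the starts used, and at most 805 bases away for the others. Their median number of CG dinucleotides was 22, against 13 over 21263 promoters of protein-coding genes and 7 over all 32851. An observed-to-expected CpG ratio above 0.6 was found in 18 of 28 (64.3%), against 47.6% of protein-coding promoters. The 10 promoters of members at 10 CPM or more had a median of 32 CG dinucleotides and the 18 of lower members 13.5, with ranges that overlapped (6 to 59 and 3 to 32). The box GGGCGG, which holds a CG itself and was searched on both strands, was in 75.0% of the members' promoters and in 46.2% of protein-coding promoters. The forkhead recognition core GTAAACA, also on both strands, was in 1 of 28 (3.57%), against 3.01% of protein-coding promoters, and that promoter was of *Foxa1*.

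The 250 bases before the RefSeq start are shown for 3 members whose RNA differed between genotypes, with each CG dinucleotide in capitals, 5′ to 3′ on the gene's strand. *Foxd3* (chr4:99656049-99656298, plus strand) and *Foxk2* (chr11:121259737-121259986, plus strand) overlapped no annotated exon, and *Foxa1* (chr12:57546112-57546361, minus strand) overlapped an annotated *Foxa1* exon by 10 bases. Its RefSeq start lay 805 bases inside the gene as GENCODE annotates it. *Foxk2*, expressed in most cells, had 48 CG dinucleotides in this window, and *Foxd3* and *Foxa1*, which are restricted to few cell types, had 21 each. In *Foxa1* the forkhead core begins at base 110 of the window.
*Foxd3*: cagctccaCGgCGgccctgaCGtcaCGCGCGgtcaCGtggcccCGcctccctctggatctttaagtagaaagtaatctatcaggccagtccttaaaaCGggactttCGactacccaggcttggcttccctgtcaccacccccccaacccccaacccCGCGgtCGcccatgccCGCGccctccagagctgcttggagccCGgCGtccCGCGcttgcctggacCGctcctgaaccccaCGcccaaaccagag
*Foxk2*: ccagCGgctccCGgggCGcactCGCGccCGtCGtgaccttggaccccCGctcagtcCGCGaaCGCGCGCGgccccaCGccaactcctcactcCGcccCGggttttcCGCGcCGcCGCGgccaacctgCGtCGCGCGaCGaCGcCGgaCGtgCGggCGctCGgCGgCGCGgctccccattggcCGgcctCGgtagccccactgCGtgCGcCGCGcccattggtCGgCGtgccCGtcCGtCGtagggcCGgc
*Foxa1*: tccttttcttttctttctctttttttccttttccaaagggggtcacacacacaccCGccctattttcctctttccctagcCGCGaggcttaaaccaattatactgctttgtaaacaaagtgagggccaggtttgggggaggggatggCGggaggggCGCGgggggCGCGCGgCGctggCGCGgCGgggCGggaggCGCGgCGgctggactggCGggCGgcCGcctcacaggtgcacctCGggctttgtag

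**Figure D2:**
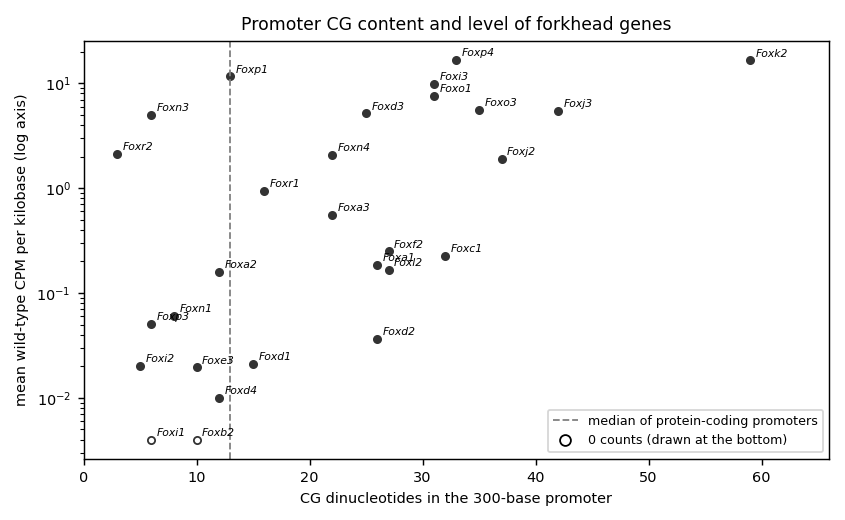
Number of CG dinucleotides in the 300-base promoter (horizontal axis) and mean wild-type level in CPM per kilobase (vertical log axis) for the 28 members with a promoter in the table; the dashed line is the median of protein-coding promoters, 13. *Foxk2*, with 59, lies farthest to the right, and *Foxr2*, with 3, farthest to the left.

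To determine which forkhead genes differed between the 3 genotypes, these were compared in a single edgeR quasi-likelihood fit of all 6 libraries. Of the 44 members, 31 had at least 10 counts in at least 2 libraries and were tested among 16951 genes, and the other 13 are given by their counts. A gene passed at a Benjamini-Hochberg adjusted p below 0.05 over all tested genes. In the heterozygous deletion 5 of 31 members passed, 16.1%, against 5.14% of all tested genes: 1 rose (*Foxm1*, against 2.23% of all genes) and 4 fell (*Foxc2*, *Foxd3*, *Foxp4* and *Foxs1*, against 2.91%). In the homozygous deletion 4 of 31 passed against wild-type, 12.9%, against 21.4% of all genes: 2 rose (*Foxh1* and *Foxm1*, against 10.9%) and 2 fell (*Foxc2* and *Foxs1*, against 10.5%). Both comparisons share the wild-type libraries, so their calls are not independent. Between the homozygous and the heterozygous deletion 4 of 31 differed, 12.9%, against 25.8% of all genes. With both alleles deleted 2 were higher (*Foxd3* and *Foxk2*), where 12.9% of all genes were, and 2 lower (*Foxa1* and *Foxf2*), where 12.9% were.

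Few of these differences were large. The study's thresholds, which also require an absolute log2 fold change above 1, were applied to edgeR's test. *Foxc2* remained in the heterozygous deletion (1 of 31 members, against 0.165% of all genes), *Foxc2* and *Foxs1* in the homozygous deletion (2 of 31, against 2.14%) and *Foxf2* between the deletions (1 of 31, against 1.39%). By DESeq2 the heterozygous *Foxc2* difference and that of *Foxf2* between the deletions did not pass (adjusted p = 0.323 and 0.186). DESeq2 called 2.55% of all genes in the heterozygous comparison and 15.3% between the deletions. The 15 members at 10 CPM or more stayed within log2 fold changes of -0.49 to 0.19 with 1 allele deleted and -0.22 to 0.17 with both, with a median standard error of 0.05. The 16 tested members under 10 CPM ranged from -1.25 to 1.14 and from -1.73 to 1.26, with median standard errors of 0.33 and 0.37, so that only large differences could be detected among them. Counts at an unadjusted p below 0.05, here and below, stand without the share of all genes at that threshold. The count of calls depended on single libraries. In the heterozygous comparison 0 members passed edgeR's test without wild-type replicate 1, where all libraries together gave 9 of 31 at an unadjusted p below 0.05 and 1 of 31 by DESeq2. In the same comparison 1 passed without wild-type replicate 2 or heterozygous replicate 1, and 2 without heterozygous replicate 2. The share of all genes that passed fell as well, from 5.14% to between 2.09% and 3.64% in these 4 fits. In the homozygous comparison 2 passed, *Foxc2* and *Foxs1*, without either wild-type replicate, where 12.7% and 13.9% of all genes did. Between the deletions 2 passed without heterozygous replicate 1 (17.3% of all genes), and 1 without heterozygous replicate 2 (17.8%) or homozygous replicate 1 (19.8%).

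**Figure D3:**
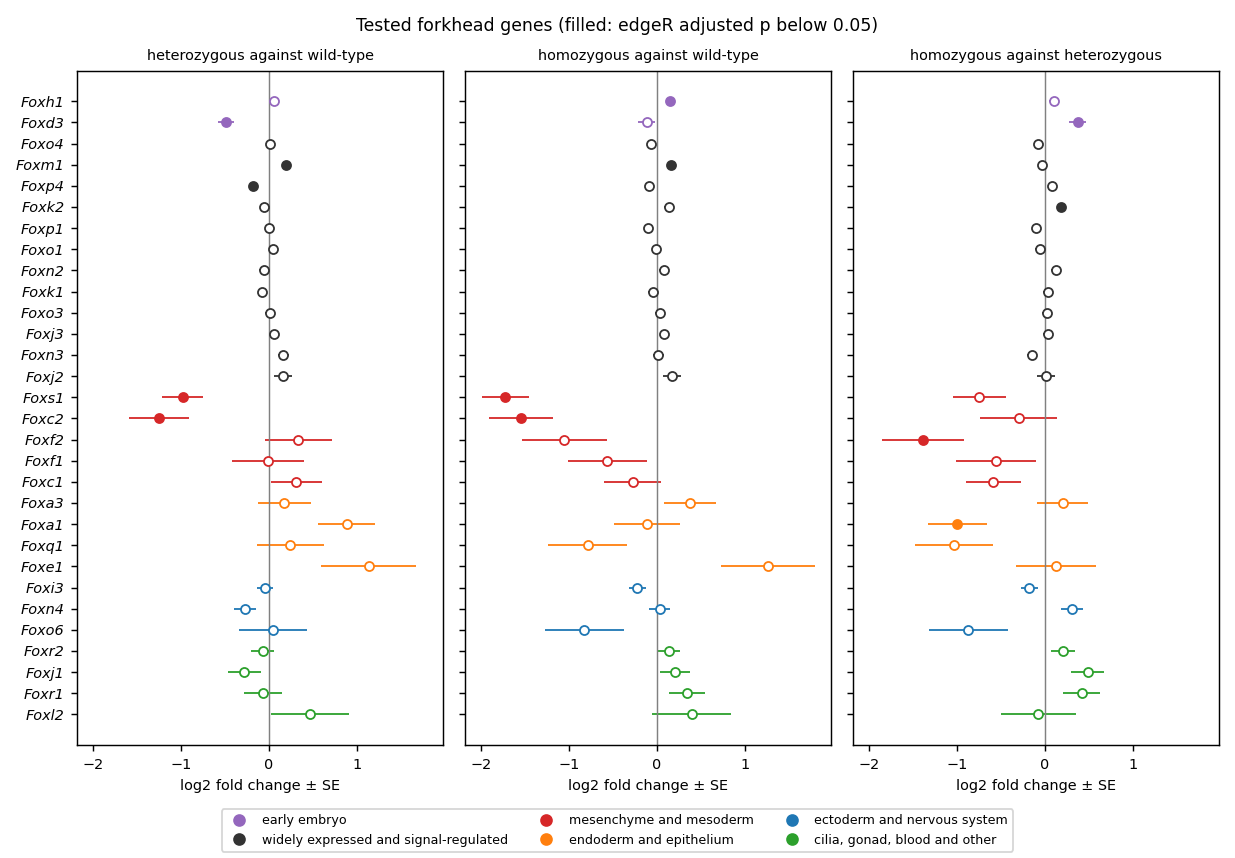
Log2 fold change ± SE of the tested forkhead genes in the 3 comparisons, 1 not shown, coloured by role; filled points passed edgeR's adjusted p below 0.05. Widely expressed members lie between -0.18 and 0.19 in every panel, and mesenchymal members reach -1.73 in the homozygous deletion.

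Of the early-embryo members, *Foxd3* differed in the heterozygous deletion. *Foxd3*, a factor needed to maintain pluripotent cells and later the neural crest (chromosome 4, 99656299 to 99658622), was at 12.1 and 11.9 CPM in wild-type mESCs, 8.15 and 8.94 with the heterozygous and 11.1 and 11.1 with the homozygous deletion. The heterozygous libraries lay below all others without overlap. In the heterozygous deletion *Foxd3* fell by 0.49 ± 0.10 (SE) on the log2 scale against wild-type (edgeR adjusted p = 0.00365) and was higher by 0.37 ± 0.10 with both alleles deleted than with 1 (edgeR adjusted p = 0.00916). Between homozygous and wild-type libraries the log2 fold change was -0.12 ± 0.09 (edgeR adjusted p = 0.428). Without wild-type replicate 1 or heterozygous replicate 1 the adjusted p of the first difference was 0.0587 and 0.0542, and without heterozygous replicate 1 that of the second was 0.0929. By DESeq2 the first difference passed and the second did not (adjusted p = 0.0716). Markers of pluripotent stem cells moved the same way. In the heterozygous deletion 6 of 10 passed and were lower, against 2.91% of all tested genes, with a median log2 fold change of -0.19. With both alleles deleted 8 of 10 passed and were higher than with 1, against 12.9% of all tested genes, with a median of 0.17. Against wild-type 1 was higher and 1 lower in the homozygous deletion, where 10.9% and 10.5% of all tested genes were. The part of these markers in the *Foxd3* result was not tested.

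*Foxh1* was at 74.4 and 74.5 CPM in wild-type mESCs, 78.8 and 75.7 with the heterozygous and 83.6 and 81.9 with the homozygous deletion. Both homozygous libraries lay above the other 4. *Foxh1* rose by 0.15 ± 0.05 on the log2 scale with both alleles deleted against wild-type (edgeR adjusted p = 0.0292). The call changed with the scaling, the filter and single libraries: with total counts only the log2 fold change was 0.10 (edgeR adjusted p = 0.164), by DESeq2 the adjusted p was 0.108, with no filter on low counts 0.0629 and after thinning to the smallest library 0.0588, and without wild-type replicate 1, wild-type replicate 2 or homozygous replicate 1 it was 0.154, 0.109 and 0.102.

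The 12 widely expressed and signal-regulated members stayed within log2 fold changes of -0.18 to 0.19. With 1 allele deleted 2 of 12 passed, 1 higher and 1 lower, where 5.14% of all genes did, and with both 1 of 12 passed, where 21.4% did. *Foxm1*, an activator of genes for mitosis (chromosome 6, 128362967 to 128376146), was at 114 and 111 CPM in wild-type mESCs, 130 and 127 with the heterozygous and 123 and 127 with the homozygous deletion. The 4 deletion libraries lay above both wild-type libraries. *Foxm1* rose by 0.19 ± 0.04 on the log2 scale with 1 allele deleted (edgeR adjusted p = 0.0141) and by 0.15 ± 0.05 with both (edgeR adjusted p = 0.0178). With total counts only the homozygous value was 0.10 (edgeR adjusted p = 0.131). By DESeq2 the heterozygous difference did not pass (0.0583). Leaving out any of the 4 libraries compared ended the heterozygous call, with adjusted p between 0.07 and 0.21, and leaving out either wild-type replicate or homozygous replicate 2 ended the homozygous call, with 0.0603, 0.131 and 0.0803. Exons of *Foxm1* share 2.5% of their length with *Tex52* and 1.7% with Gm44596 on the same strand.

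*Foxp4* was at 83.2 and 82.3 CPM in wild-type mESCs, 75.7 and 70.7 with the heterozygous and 78.7 and 76.7 with the homozygous deletion. It fell by 0.18 ± 0.05 on the log2 scale with 1 allele deleted (edgeR adjusted p = 0.0449), and the call ended with total counts only (0.0623), by DESeq2 (0.159), with the replicate number as a block (0.0515) and without wild-type replicate 1, wild-type replicate 2 or heterozygous replicate 2 (0.266, 0.219 and 0.441). In the homozygous deletion its log2 fold change was -0.09 (edgeR adjusted p = 0.218), and with total counts only -0.15 (0.0379). *Foxk2*, a repressor of metabolic and autophagy genes (chromosome 11, 121259990 to 121309896), was at 86.0 and 88.4 CPM in wild-type mESCs, 85.2 and 83.2 with the heterozygous and 99.6 and 92.0 with the homozygous deletion. Both homozygous libraries lay above the other 4, and *Foxk2* was higher by 0.19 ± 0.05 on the log2 scale with both alleles deleted than with 1 (edgeR adjusted p = 0.00968). Against wild-type the log2 fold change was 0.13 ± 0.05 (edgeR adjusted p = 0.0608). The difference between the deletions did not pass with total counts only (0.0716) or without heterozygous replicate 2 or homozygous replicate 1 (0.0783 and 0.111).

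The FoxO factors, which insulin and growth factor signalling hold in the cytoplasm, gave 0 calls in the 3 comparisons by edgeR and by DESeq2, and 0 at an unadjusted p below 0.05 by edgeR. With total counts only, *Foxo4* was lower by 0.14 on the log2 scale with both alleles deleted than with 1 (edgeR adjusted p = 0.0411). *Foxo1* was at 65.2 and 65.8 CPM in wild-type mESCs, 66.9 and 68.6 with the heterozygous and 63.4 and 66.7 with the homozygous deletion. *Foxo3* was at 42.2 and 42.9 CPM in wild-type mESCs, 43.0 and 42.5 with the heterozygous and 44.2 and 42.8 with the homozygous deletion. *Foxo4* was at 79.9 and 77.1 CPM in wild-type mESCs, 81.6 and 76.9 with the heterozygous and 75.9 and 74.5 with the homozygous deletion. The genotypes overlapped for *Foxo3*, and for *Foxo1* the heterozygous libraries lay above and for *Foxo4* the homozygous libraries below the other 4. Against wild-type the log2 fold changes of *Foxo1* were 0.05 ± 0.05 with 1 allele deleted and -0.01 ± 0.05 with both, those of *Foxo3* were 0.01 ± 0.06 and 0.03 ± 0.06, and those of *Foxo4* were 0.01 ± 0.05 and -0.06 ± 0.05. *Foxk1*, the relative of *Foxk2* that represses autophagy genes in fed cells, was at 48.7 and 49.3 CPM in wild-type mESCs, 47.0 and 46.1 with the heterozygous and 46.4 and 48.7 with the homozygous deletion, with log2 fold changes of -0.07 ± 0.06 and -0.04 ± 0.06. The remaining members of the group, *Foxj2*, *Foxj3*, *Foxn2*, *Foxn3* and *Foxp1*, lay between -0.15 and 0.17 on the log2 scale over the 3 comparisons. With total counts only, *Foxn3* and *Foxp1* passed between the deletions at -0.21 and -0.17 (edgeR adjusted p = 0.0230 and 0.00763), and *Foxp1* in the homozygous deletion at -0.16 (edgeR adjusted p = 0.0149).

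Among members past the filter, the lowest log2 fold change in each comparison was that of a mesenchymal gene, from a group of 8 mesenchymal and mesodermal members. Their summed level was 6.80 and 7.59 CPM in wild-type mESCs, 5.50 and 5.26 with the heterozygous and 2.97 and 3.76 with the homozygous deletion, without overlap between genotypes. The filter on low counts left 5 of them. These had log2 fold changes below 0 in the homozygous deletion, from -1.73 to -0.27 with a median of -1.06, against a median of -0.01 over all tested genes. Of all tested genes 10.5% passed and were lower there, and 2 of the 5 did. In the heterozygous deletion their log2 fold changes ran from -1.25 to 0.33 with a median of -0.01. *Foxs1* and *Foxc2* were at -0.98 and -1.25 there, and *Foxc1*, *Foxf1* and *Foxf2* at 0.31, -0.01 and 0.33.

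*Foxs1*, a single-exon gene of pericytes and the periendothelium (chromosome 2, 152931898 to 152933208), was counted 84 and 76 times in wild-type mESCs, 30 and 46 with the heterozygous and 14 and 29 with the homozygous deletion, or 2.86 and 2.97, 1.20 and 1.73, and 0.611 and 1.11 CPM. The 3 genotypes did not overlap, and the order ran from wild-type over heterozygous to homozygous. *Foxs1* fell by 0.98 ± 0.24 (SE) on the log2 scale with 1 allele deleted (edgeR adjusted p = 0.0160) and by 1.73 ± 0.27 in the homozygous deletion (edgeR adjusted p = 6.89e-05). The homozygous difference passed under all 14 alternatives, with adjusted p from 1.72e-11 to 0.00156. The heterozygous difference did not pass by DESeq2 (0.180) or without wild-type replicate 1, wild-type replicate 2 or heterozygous replicate 1 (0.0989, 0.130 and 0.186). The 2 deletions differed by -0.75 ± 0.31, which did not pass (edgeR adjusted p = 0.0810), although it did with no filter on low counts (0.0489) and without homozygous replicate 2 (0.0149).

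*Foxc2*, a regulator of vascular, lymphatic and skeletal mesenchyme (chromosome 8, 121116171 to 121118895), was counted 41 and 38 times in wild-type mESCs, 16 and 15 with the heterozygous and 6 and 18 with the homozygous deletion, or 1.39 and 1.49, 0.643 and 0.563, and 0.262 and 0.691 CPM. All 4 deletion libraries lay below both wild-type libraries, and the homozygous replicates spread to either side of the heterozygous ones. *Foxc2* fell by 1.25 ± 0.34 on the log2 scale with 1 allele deleted (edgeR adjusted p = 0.0355) and by 1.55 ± 0.36 with both (edgeR adjusted p = 0.00376). The homozygous difference passed under all 13 alternatives, with adjusted p from 2.59e-05 to 0.0428, and was -2.44 without homozygous replicate 2 and -1.05 without homozygous replicate 1. The heterozygous difference did not pass by DESeq2 (0.323) or with any of the 4 libraries left out (0.125 to 0.279).

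*Foxf2*, a gene of gut and palate mesenchyme (chromosome 13, 31625816 to 31631403), was counted 21 and 12 times in wild-type mESCs, 17 and 22 with the heterozygous and 4 and 10 with the homozygous deletion. The homozygous libraries lay lowest and the other genotypes overlapped. *Foxf2* was lower by 1.39 ± 0.46 on the log2 scale with both alleles deleted than with 1 (edgeR adjusted p = 0.0318), and against wild-type the log2 fold change was -1.06 ± 0.48 (edgeR adjusted p = 0.128). The first difference did not pass by DESeq2 (0.186) or without heterozygous replicate 1, heterozygous replicate 2 or homozygous replicate 1 (0.0664, 0.160 and 0.191). Its neighbour *Foxc1*, a relative of *Foxc2*, had 33 and 39, 52 and 32, and 31 and 22 counts, with a homozygous log2 fold change of -0.27 ± 0.33 (edgeR adjusted p = 0.614). *Foxf1*, a gene of lung and gut mesenchyme, had 13 and 17, 13 and 15, and 10 and 8 counts, with -0.57 ± 0.45 (edgeR adjusted p = 0.418). *Foxl1*, which acts in the mesenchyme under the gut epithelium, had 3 and 6, 2 and 1, and 1 and 2 counts, and *Foxd1*, a gene of kidney stroma, had 4 and 2, 5 and 5, and 1 and 4. Both were under the filter, and so was *Foxd2*, with 1 to 5 counts. With no filter on low counts *Foxl1* had log2 fold changes of -1.43 ± 1.13 and -1.36 ± 1.13 against wild-type, which did not pass (edgeR adjusted p = 0.835 and 0.648).

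Most markers of feeder fibroblasts fell with *Foxs1* and *Foxc2* in both comparisons with wild-type. A fall with 1 allele deleted was not seen for *Foxf2*, *Foxc1* and *Foxf1*. Their log2 fold changes there were 0.33 ± 0.38, 0.31 ± 0.30 and -0.01 ± 0.41. Of 20 tested markers of 22, 14 passed and were lower with 1 allele deleted, against 2.91% of all tested genes. The 20 had a median of -0.51 on the log2 scale there and a range of -0.88 to 0.31, with *Twist2* and *Tagln* above 0. With both deleted 18 passed and were lower, against 10.5% of all tested genes, and the 20 had a median of -1.14 and a range of -1.40 to -0.38. No marker was at 0 in every library, and *Col1a1*, a collagen of fibroblasts, was at 424 and 408 CPM in wild-type mESCs, 297 and 262 with the heterozygous and 173 and 171 with the homozygous deletion. *Foxs1* and *Foxc2*, at -1.73 and -1.55, had lower homozygous log2 fold changes than the lowest of the 20 markers, *Thy1* at -1.40, by less than 2 of their standard errors of 0.27 and 0.36. With 1 allele deleted they were at -0.98 ± 0.24 and -1.25 ± 0.34, and the lowest marker, *Col6a1*, was at -0.88. In bulk libraries fewer cells of a type and less RNA per cell cannot be told apart, and the part of the feeder cells in the *Foxs1* and *Foxc2* results was not tested. *Foxc2* lies on chromosome 8, whose 890 tested genes had a median of -0.12 on the log2 scale with 1 allele and 0.39 with both alleles deleted, and where *Foxf1* and *Foxl1* lie too, while *Foxs1* lies on chromosome 2, with medians of 0.00 and -0.03.

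**Figure D4:**
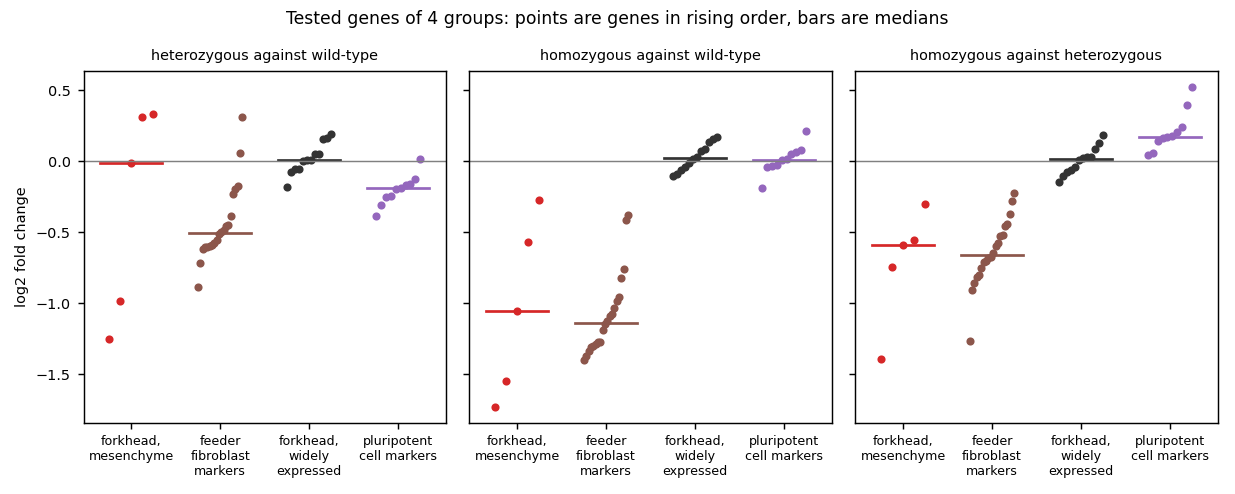
Log2 fold changes in the 3 comparisons (vertical axis) of the tested genes of 4 groups, each point a gene and each bar a median. In the homozygous deletion the 5 mesenchymal forkhead genes (median -1.06) and the 20 feeder fibroblast markers (median -1.14) lie below 0, and the 12 widely expressed forkhead genes and the 10 pluripotent cell markers have medians of 0.02 and 0.01.

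Endodermal and epithelial members were low in every genotype. *Foxa1*, a pioneer factor of endoderm and epithelia (chromosome 12, 57540628 to 57546916), was counted 20 and 14 times in wild-type mESCs, 30 and 29 with the heterozygous and 12 and 16 with the homozygous deletion, or 0.680 and 0.548, 1.20 and 1.09, and 0.524 and 0.614 CPM. The heterozygous libraries lay above the other 4. *Foxa1* was lower by 1.0 ± 0.33 on the log2 scale with both alleles deleted than with 1 (edgeR adjusted p = 0.0334), while the heterozygous log2 fold change of 0.88 ± 0.32 against wild-type did not pass (edgeR adjusted p = 0.136). The difference between the deletions did not pass by DESeq2 (0.244) or with any of the 4 libraries left out (0.0566 to 0.151). The sum over 8 endoderm markers, of which 1 (*Pdgfra*) is also in the feeder fibroblast list, was highest in heterozygous libraries too. It was 25.9 and 25.9 CPM in wild-type mESCs, 29 and 31.2 with the heterozygous and 19.2 and 20.0 with the homozygous deletion. Unlike this sum, *Foxa1* had a homozygous log2 fold change near 0 against wild-type (-0.11 ± 0.38). *Dab2*, with 16.1 and 15.1 CPM of the wild-type sum, was at -0.005 with 1 allele deleted and -0.48 with both. With 1 allele deleted *Cubn*, *Gata6* and *Gata4* were at 1.28, 0.91 and 0.67, and *Pdgfra* and *Sox7* at -0.17 and -0.07. Of 6 tested markers, 4 passed and were lower with both alleles deleted than with 1, against 12.9% of all tested genes. *Sox7* was at 0.32 in that comparison. With 1 allele deleted, 1 of the 6 passed against wild-type and was higher, where 2.23% of all tested genes were. The part of these markers in the *Foxa1* result was not tested.

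*Foxa2*, which specifies definitive endoderm and the node, had 13 and 8 counts in wild-type mESCs, 7 and 8 with the heterozygous and 2 and 2 with the homozygous deletion. It was under the filter. With no filter on low counts *Foxa2* had a homozygous log2 fold change of -2.17 ± 0.73 against wild-type, which passed in that fit (edgeR adjusted p = 0.0230). *Foxq1*, an epithelial gene, had 13 and 22, 21 and 18, and 8 and 10 counts, with homozygous log2 fold changes of -0.79 ± 0.45 against wild-type (edgeR adjusted p = 0.236) and -1.03 ± 0.44 against the heterozygous deletion (edgeR adjusted p = 0.0915). *Foxe1*, a thyroid and palate gene, had 6 and 6, 17 and 8, and 13 and 13 counts, and *Foxa3*, a liver and pancreas gene, had 24 to 39. Neither passed the test. After thinning to the smallest library *Foxe1* passed in the homozygous deletion against wild-type (edgeR adjusted p = 0.0272) and *Foxq1* between the deletions (0.0423).

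Members of the ectoderm and nervous system, and those of cilia, gonad and blood, gave 0 calls in the 3 comparisons by edgeR and 0 by DESeq2. At an unadjusted p below 0.05, 1 of 4 tested neuroectodermal genes stood out in each comparison (*Foxn4*, a gene of retinal and spinal progenitors, in both comparisons with the heterozygous deletion, and *Foxi3*, a gene of the ectodermal placodes, in the homozygous deletion against wild-type), and 1 of the 4 others did between the deletions (*Foxj1*, the regulator of motile cilia). *Foxi3* was the most abundant of these, with 12.9 and 12.5 CPM in wild-type mESCs, 12.4 and 12.2 with the heterozygous and 10.1 and 11.6 with the homozygous deletion. The homozygous libraries lay below the other 4, with a log2 fold change of -0.22 ± 0.10 against wild-type that did not pass (edgeR adjusted p = 0.106). *Foxn4* had log2 fold changes of -0.28 ± 0.12 in the heterozygous deletion (edgeR adjusted p = 0.268) and 0.31 ± 0.13 between the deletions (edgeR adjusted p = 0.0817), and *Foxj1* was at 0.49 ± 0.18 between the deletions (edgeR adjusted p = 0.0574). Under single alternatives these 3 genes passed edgeR's test: *Foxi3* with total counts only (0.0487) and without homozygous replicate 2 (0.0405), *Foxn4* without heterozygous replicate 1 (0.0466) and *Foxj1* with the stricter filter (0.0499). *Foxo6*, *Foxl2*, *Foxr1* and *Foxr2* had log2 fold changes between -0.87 and 0.47. *Foxp2*, *Foxp3*, *Foxn1*, *Foxi2*, *Foxd4*, *Foxe3*, *Foxb1* and *Foxb2* were under the filter, with at most 10 counts in a library.

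**Figure D5:**
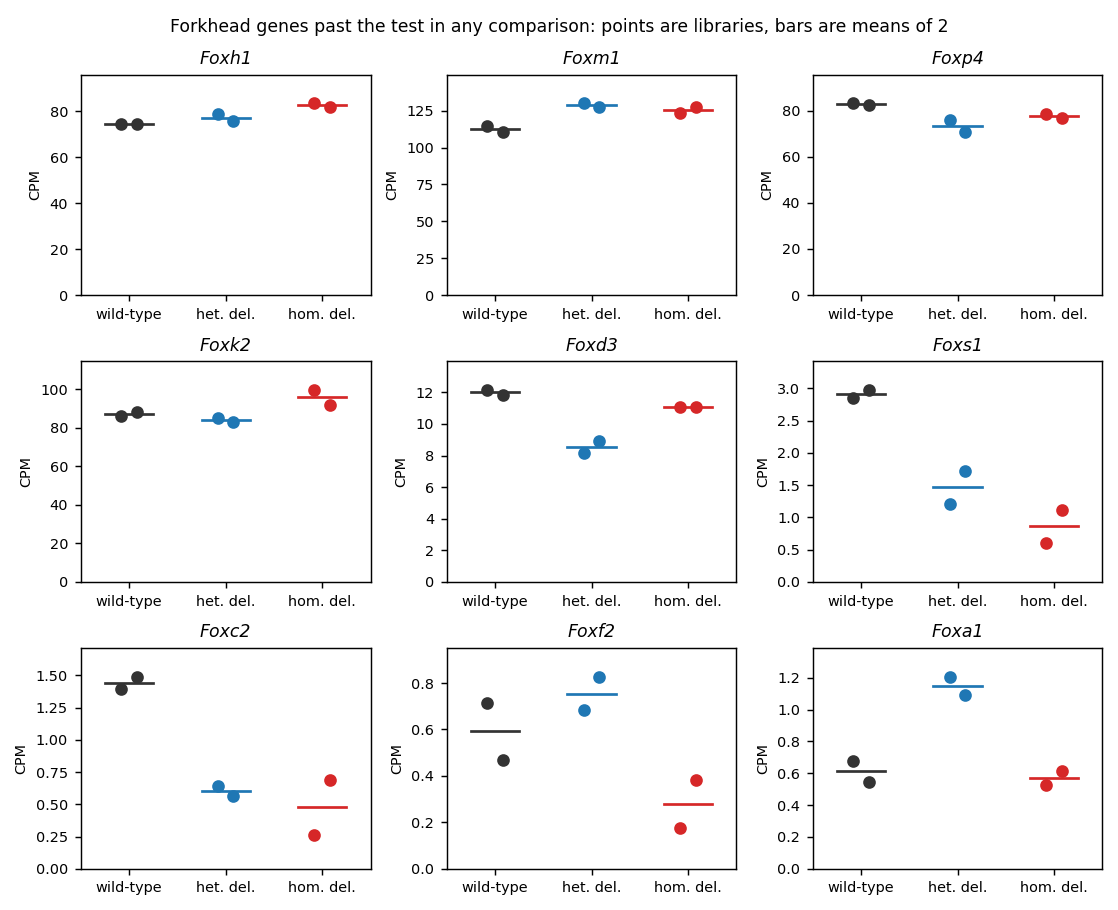
Level in CPM (vertical axes from 0, a scale for each gene) of the 9 forkhead genes that passed the test in any comparison; points are libraries and bars the means of 2. *Foxs1* falls from 2.86 and 2.97 CPM in wild-type to 0.611 and 1.11 in the homozygous deletion, *Foxd3* is lowest in the heterozygous deletion at 8.15 and 8.94, and *Foxh1* spans 74.4 to 83.6 over the 6 libraries.

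Genes that act with the abundant forkhead factors were then counted, each list beside the share of all tested genes given above. That share depends on level, and the lists were not matched for it. Of all genes at 10 CPM or more in wild-type mESCs, 7.59% passed in the heterozygous and 29.2% in the homozygous comparison, and 35.8% between the deletions. Of those under 10 CPM, 2.12%, 11.8% and 13.4% did. The lists were not matched for chromosome either, and positions of their genes are not given here. The 890 tested genes of chromosome 8 had median log2 fold changes of -0.12 (heterozygous), 0.39 (homozygous) and 0.51 (between the deletions). The part of this shift in the list results was not tested. Of 49 regulators and targets of FoxO, 47 were tested. With 1 allele deleted 3 were higher and 3 lower (12.8%, against 5.14% of all genes), with *Ccnd2*, a cyclin that FoxO represses, lower by 0.46 ± 0.05 on the log2 scale (edgeR adjusted p = 1.31e-05) and *Irs2*, an insulin receptor adaptor, higher by 0.34 ± 0.05 (edgeR adjusted p = 0.00037). The stem cell factor *Klf2* was lower by 0.32 ± 0.07 (edgeR adjusted p = 0.0112), a call lost by DESeq2 (0.0512) and without wild-type replicate 1, wild-type replicate 2 or heterozygous replicate 2 (0.0852, 0.113 and 0.216). With both alleles deleted 7 were higher and 9 lower (34.0%, against 21.4%), and *Ccnd2* was at 73.9 and 75.9 CPM in wild-type mESCs, 53.7 and 55.1 with the heterozygous and 53.1 and 49.6 with the homozygous deletion. *Irs2* was at 49.9 and 48.5, 63.8 and 61.1, and 72.2 and 69.3 CPM, and *Pik3ip1*, an inhibitor of PI3 kinase, at 4.52 and 4.11, 4.26 and 4.13, and 2.53 and 2.38 CPM. For each of these 3 genes the homozygous libraries did not overlap with wild-type ones, and the log2 fold changes were -0.54 ± 0.05, 0.52 ± 0.05 and -0.82 ± 0.16. Between the deletions 9 were higher and 9 lower (38.3%, against 25.8%), among them *Map1lc3b*, an autophagosome protein, higher by 0.49 ± 0.05 (edgeR adjusted p = 1.59e-07), *Rbl2*, a pocket protein, higher by 0.53 ± 0.17 (edgeR adjusted p = 0.0282), and *Pik3ip1*, lower by 0.77 ± 0.17 (edgeR adjusted p = 0.00167). *Rbl2* did not pass with total counts only (0.0625), by DESeq2 (0.0989), with robust estimation (0.0584) or without heterozygous replicate 1 (0.181). The list's median log2 fold change stayed within 0.00 to 0.01 in the 3 comparisons, against medians of 0.00, -0.01 and -0.02 over all genes. The heterozygous count of 6 was 3 without wild-type replicate 1 and 2 without wild-type replicate 2 or heterozygous replicate 2, and the homozygous count of 16 was 10 without wild-type replicate 2.

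Of 32 targets of FoxM1, all tested, 1 rose and 1 fell in the heterozygous deletion (6.25%, against 5.14%). *Kif23*, a motor of cytokinesis, rose by 0.17 ± 0.04 (edgeR adjusted p = 0.0200), and *Mybl2*, a partner of *Foxm1* at cell-cycle genes, fell by 0.16 ± 0.04 (edgeR adjusted p = 0.0237). In the homozygous deletion 7 rose and 1 fell (25%, against 21.4%), with a median log2 fold change of 0.10 against -0.01 over all genes. *Ccne2*, a cyclin of S phase entry, was at 30.6 and 31.4 CPM in wild-type mESCs, 31.2 and 33.2 with the heterozygous and 42.4 and 41.4 with the homozygous deletion and rose by 0.43 ± 0.06 (edgeR adjusted p = 2.65e-05). The kinetochore genes *Cenpf* and *Cenpe* rose by 0.31 ± 0.05 and 0.23 ± 0.04 (edgeR adjusted p = 0.000101 and 0.000777). Between the deletions 11 were higher and 3 lower (43.8%, against 25.8%), among them *Ccne2* by 0.38 ± 0.06, *Cenpf* by 0.26 ± 0.05 and *Mybl2* by 0.25 ± 0.04, all higher in the homozygous deletion. By DESeq2 *Kif23* did not pass (0.0597). The heterozygous count was 1 without heterozygous replicate 1 and 0 without each of the other 3 libraries compared. Without wild-type replicate 1 the homozygous count against wild-type was 3, and without either heterozygous replicate the count between the deletions was 8.

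Of 20 partners and targets of FoxH1 in Nodal signalling, 18 were tested, and 0 passed in the heterozygous deletion by edgeR or by DESeq2, with 4 at an unadjusted p below 0.05. With both alleles deleted 3 rose and 2 fell (27.8%, against 21.4%). *Gdf3*, a Nodal-related ligand, was at 112 and 112 CPM in wild-type mESCs, 99.9 and 104 with the heterozygous and 145 and 131 with the homozygous deletion and rose by 0.30 ± 0.05 (edgeR adjusted p = 0.000172), and *Smad7*, an inhibitor of the pathway, fell by 0.22 ± 0.05 (edgeR adjusted p = 0.00636). Between the deletions 6 were higher and 5 lower (61.1%, against 25.8%), with *Gdf3* and the receptor *Acvr2b* higher by 0.44 ± 0.05 and 0.28 ± 0.07. Without heterozygous replicate 2 that count was 4 and *Acvr2b* did not pass (0.0622), and without wild-type replicate 1 *Smad7* did not pass against wild-type (0.0948).

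Noncoding neighbours of the forkhead genes were low. *Fendrr*, transcribed away from *Foxf1* on chromosome 8, had 3 and 0 counts in wild-type mESCs, 0 and 0 with the heterozygous and 0 and 2 with the homozygous deletion, and *Foxo6os* had 0 in every library. *Foxd2os* had 18 and 16, 13 and 19, and 28 and 11 counts, and *Foxl2os* had 42 and 37, 51 and 59, and 34 and 47, while *Foxl2* itself, a gene of the ovary, had 18 and 12, 23 and 16, and 25 and 10. The genotypes overlapped for *Foxd2os*, and for *Foxl2os* the heterozygous libraries lay highest. The library kit keeps strand, but the strand setting of the counting is not given in the sources used here, so reads of *Foxl2* and *Foxl2os*, which share 12 bases of exon, and of *Foxq1* and A530084C06Rik, which covers 66.1% of its exons on the other strand and had 0 counts, cannot be firmly assigned.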

How the data were processed

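RNA of 2 wild-type, 2 heterozygous and 2 homozygous *Wnt6* deletion libraries was prepared with a stranded mRNA kit. Methods of the study state triplicates, and the 6 labelled libraries were used. The table deposited by the authors holds unnormalized read counts for 55385 genes. The submitters' processing notes name Trimmomatic 0.39, STAR 2.6.1d, SAMtools 1.9, featureCounts 1.6.4, DESeq2 1.22.2 and the build GRCm38 (mm10). The annotation and the strand setting are not given in the sources used here.

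Counts were fitted with edgeR 4.0.16 (glmQLFit and glmQLFTest, TMM factors, R 4.3.3) over genes that reached 10 counts in 2 or more libraries, with genotype as the only term. P-values were adjusted with the Benjamini-Hochberg method over all 16951 tested genes, and a gene passed below 0.05. Fold changes are log2 with standard errors. The fit, with a common biological coefficient of variation of 3.52%, was tested on simulated data.

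Positions and exon lengths came from GENCODE M21 on GRCm38, in which 55144 gene identifiers were found, and promoters from RefSeq on GRCm38.p6. Members were chosen by symbol. The members, role groups, gene lists and markers were chosen with earlier results of these data known. Values per library are given for members past the test, the 5 with the highest wild-type level per kilobase and a fixed set of others. Of each list, the 3 largest changes past the test in each comparison were named, by their fold changes and for some also per library. *Foxi3*, *Foxn4*, *Foxj1*, *Foxe1* and *Foxa3* were named after their values were seen. Values of a few genes counted among the members and lists are not reported here.

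Replicate numbers are shared between genotypes. The deviations of same-numbered libraries from their genotype means correlated by 0.033 (wild-type and heterozygous), -0.148 (wild-type and homozygous) and 0.0156 (heterozygous and homozygous), so the numbers were not taken to pair the libraries. Results were recomputed with total counts only, DESeq2 1.42.0, DESeq2 size factors passed to edgeR, no and a stricter filter (50 counts), only the libraries compared, a replicate block, robust estimation, the study's thresholds, thinning to the smallest total, each library left out in turn and the longest transcript as length. With a library left out, its genotype's lone library is assumed to vary like the others. Figures were drawn with matplotlib 3.10.9 in Python 3.11.15.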

Additional observations from a re-analysis of the deposited data

Results flagged for a closer look

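Between the deletions 4 forkhead genes differed in their change from the same wild-type libraries, by edgeR's test of homozygous against heterozygous libraries. *Foxk2* differed by 0.19 on the log2 scale, from 85.2 and 83.2 CPM in heterozygous to 99.6 and 92.0 in homozygous libraries. *Foxd3* differed by 0.37, from 8.15 and 8.94 to 11.1 and 11.1 CPM. *Foxf2* differed by -1.39, from 17 and 22 to 4 and 10 counts. *Foxa1* differed by -1.0, from 30 and 29 to 12 and 16 counts. These are 4 of 31 tested members, 12.9%, where 25.8% of all tested genes differed in this comparison.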

How the results depend on the processing

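With the thresholds of the study on fold change and adjusted p, applied to edgeR's test, forkhead calls numbered 1 in the heterozygous comparison, 2 in the homozygous comparison and 1 between the deletions. Each of the 3 lists gave 0 calls in every comparison. By DESeq2 forkhead calls were 1 in the heterozygous comparison and 1 between the deletions, FoxO and FoxM1 list calls were 3 and 1 in the heterozygous comparison, and FoxH1 list calls were 7 between the deletions. Over all tested genes DESeq2 called 433, 2152 and 2595 genes. The FoxH1 list gave 1 call in the heterozygous comparison, *Nodal*, with total counts only, with the stricter filter, with robust estimation and after thinning to the smallest library. In the fit of only the libraries compared it gave 2, and the FoxO list gave 10. The cause of these differences was not tested.

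With a replicate left out, forkhead calls ranged from 0 to 2 in the heterozygous comparison, from 2 to 5 in the homozygous comparison and from 1 to 5 between the deletions, while 2.09% to 3.64%, 12.7% to 21.4% and 17.3% to 25.8% of all genes passed in these fits. FoxO list calls ranged from 2 to 4 in the heterozygous comparison, with 2 without wild-type replicate 2 or heterozygous replicate 2, and from 10 (without wild-type replicate 2) to 16 in the homozygous comparison. FoxM1 list calls ranged from 0 to 1 in the heterozygous comparison, from 3 to 12 in the homozygous comparison and from 8 to 15 between the deletions, and FoxH1 list calls from 4 to 10 between the deletions. These fits hold fewer libraries. The homozygous log2 fold change of *Foxa1* against wild-type ranged from -0.241 to 0.0595 without a replicate, changing sign without wild-type replicate 1, and that of *Foxc2* between the deletions from -1.19 to 0.199, changing sign without homozygous replicate 1. Neither had passed the test.

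The same replicate numbers stand in each genotype. With the replicate number as a block, forkhead calls were 4 in each comparison, with *Foxp4* lost in the heterozygous deletion. Of all genes 4.81% passed in that fit in the heterozygous comparison, 20.3% in the homozygous comparison and 24.5% between the deletions. With the replicates of the homozygous comparison crossed in the block, which was added after seeing the data, 6 members passed, and FoxM1 list calls were 20, where 29.3% of all genes passed. The order of wild-type levels changed below *Foxm1* when the longest transcript was the length, with *Foxp1* in rank 4. At this depth 21 members lay under 1 CPM. Of the 13 under the filter, 12 were tested only with no filter on low counts, and *Foxi1*, at 0, was not tested.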
